A study of Mus musculus with 12 samples.

Results

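Brivanib was added to cisplatin in tumours of Lewis lung carcinoma (LLC) cells, a lung cancer line of C57BL/6 mice, and the RNA of those tumours was set against tumours given cisplatin without brivanib. The comparison takes 6 of the 12 libraries measured: combination libraries 2, 3 and 4 and cisplatin libraries 1, 2 and 3, chosen by the treatment in their labels. It covers the 14246 of 53801 genes with a mean of at least 1 FPKM (fragments scaled to transcript length and sequencing depth) over the 12 libraries. The other 6 libraries, 3 from vehicle tumours and 3 from brivanib tumours, enter the level filter and the estimate of the spread, and show what brivanib did without cisplatin.

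All hosts were female C57BL/6 mice aged 6 to 8 weeks with an intact immune system as far as the labels say. LLC cells in Matrigel were placed in both flanks of 6 mice per group, which gave 10 to 12 tumours a group, so tumours of a group may share an animal. Drug injections of 100 µL into the peritoneum began once the total tumour volume reached 100 mm3 and continued for 4 weeks. No source used here states a dose. Nothing in the labels ties a library to its own mouse, so every p-value given here measures only the spread between these samples, which may be technical.

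Cisplatin is a platinum compound that cross-links DNA. Brivanib inhibits the kinase activity of the receptors for vascular endothelial growth factor (VEGF) and fibroblast growth factor (FGF), which endothelial cells use to build vessels. The title of the study links brivanib to cGAS, a sensor of DNA in the cytosol. cGAS makes a messenger that activates STING, STING activates the kinase TBK1 and the factor IRF3, and the interferon beta that follows acts on neighbouring cells through the receptor pair IFNAR1 and IFNAR2. The receptor signals through JAK1, TYK2, STAT2 and IRF9 and switches on antiviral genes whose promoters carry an interferon-stimulated response element.

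The fragments per library, recovered from the FPKM values and counted in units of 1e6, numbered 17.161 to 22.809. Most markers of normal lung were at or near 0: Nkx2-1, Sftpc, Sftpa1, Sftpd and Scgb1a1 were listed at 0 FPKM in all 6. Krt18 was also listed at 0 and Krt8 reached 0.222 FPKM at most, whereas the mesenchymal filament gene Vim stood at 844 to 1154 FPKM. Defining markers of lung epithelium such as Nkx2-1, Sftpc and Scgb1a1 were thus listed at 0 in libraries labelled as Lewis lung cancer cells. Other members of that list were present at low levels. Epcam stood at 0.472 to 1.65 FPKM, Ager reached 1.05 in combination library 3, and Cdh1, the epithelial cadherin, stood at 1.12 to 2.26 FPKM. Normal tissue differed between tumours. The mean log2(FPKM + 1) of 13 tested fat cell genes was 2.93, 1.67 and 1.86 in cisplatin libraries 1, 2 and 3 and 3.39, 3.36 and 3.17 in combination libraries 2, 3 and 4. Skeletal muscle genes averaged 1.72, 0.439 and 1.46 in the cisplatin libraries and 2.42, 0.492 and 0.442 in the combination libraries.

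No gene passed an adjusted p of 0.05 in limma (0 of 14246, or 0%, with a smallest adjusted p of 0.588). At an unadjusted p under 0.05 there were 960 genes (6.74% of those tested), 401 with higher levels in the combination libraries (2.81%) and 559 with lower levels (3.92%). All 3 combination libraries lay above all 3 cisplatin libraries for 704 genes (4.94%) and below them for 1060 (7.44%), together 12.4% of the genes tested. The fitted change was at least 2-fold for 97 genes (0.681%), 56 upward (0.393%) and 41 downward (0.288%). The median log2 fold change over all genes was -0.02, and 6540 genes (45.9%) had a value above 0 and 7705 (54.1%) below it. All log2 fold changes here are differences of mean log2(FPKM + 1), combination minus cisplatin, ± their standard error, and understate the change of genes with low levels. The median standard error of 0.16 sets the scale on which to read them. Since no gene passed, the genes below are given by their values, read beside these shares of all genes.

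**Figure D1:**
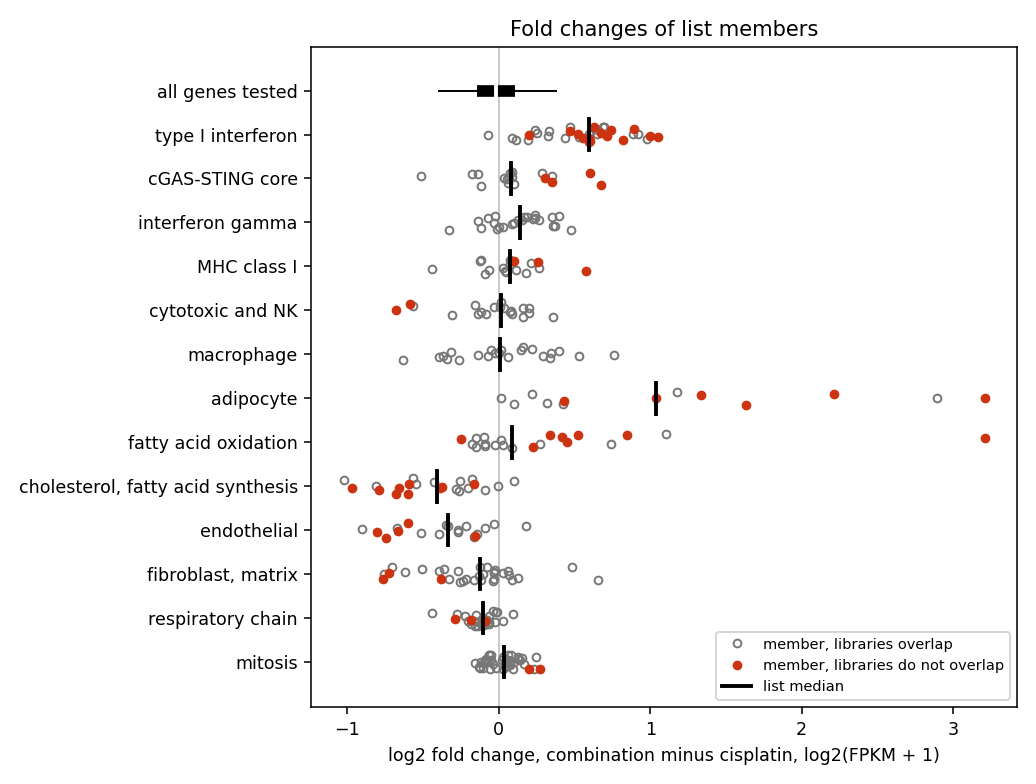
Log2 fold change of each tested list member (combination minus cisplatin, on log2(FPKM + 1)), 1 row of points per list, with filled points for genes whose 3 combination libraries lie all above or all below the 3 cisplatin libraries and a bar at the list median. The top row shows all 14246 genes, with a thick line from the 25th to the 75th percentile, a thin line from the 5th to the 95th (-0.39 to 0.38) and a gap at the median; the interferon and adipocyte points sit to the right and the cholesterol and endothelial points to the left of it.

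Antiviral genes of the type I interferon response stood higher in the combination libraries. Of 37 genes listed, 35 were tested, and 34 of these had a fold change above 0, with a median of 0.59 against -0.02 for all genes. Non-overlapping libraries with the combination on top were found for 15 of the 35, where 4.94% of all genes did the same, and 18 had an unadjusted p under 0.05 against 2.81%. None passed the adjusted threshold, the smallest adjusted p on the list being 0.657.

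Of the members tested, 26 have at least 1 promoter window in the RefSeq table (GRCm38.p6, 250 bases before to 50 after the annotated start of transcription), 30 windows in all. The core of the interferon-stimulated response element, GAAA followed by any 2 bases and GAAA, was searched on both strands with overlapping matches counted once per window. It was present in 17 of the 30 windows (56.7%) against 1131 of 32851 windows of all genes (3.44%). The list was made of interferon response genes, so this share describes the list and not these tumours. Counted by gene, 15 of the 26 members had a match (57.7%). Among the 15 members whose libraries did not overlap, 5 of the 9 genes with a window had one (55.6%), a similar share. The upstream stretches of members with an unadjusted p under 0.05 and a match on the gene's own strand are printed here. They show where the match lies, and having a match is how they were chosen. They run 5′ to 3′ on the gene's strand, with the matches in capitals. A match describes the letters and shows no binding.
Oas3 (chr5:120777685-120777774, minus strand): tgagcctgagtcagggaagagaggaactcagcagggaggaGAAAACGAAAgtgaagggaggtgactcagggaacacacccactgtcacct
Oas1a (chr5:120907526-120907585, minus strand): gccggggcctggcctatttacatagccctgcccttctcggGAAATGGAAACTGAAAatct
Oas1g (chr5:120887614-120887671, minus strand): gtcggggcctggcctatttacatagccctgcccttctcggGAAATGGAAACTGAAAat
Isg15 (chr4:156200835-156200936, minus strand): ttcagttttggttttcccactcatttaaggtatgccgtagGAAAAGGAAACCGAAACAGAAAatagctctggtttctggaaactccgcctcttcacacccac
Ifi211 (chr1:173913047-173913123, minus strand): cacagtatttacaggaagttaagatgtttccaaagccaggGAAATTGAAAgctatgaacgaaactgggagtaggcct
Ifi203 (chr1:173942493-173942567, minus strand): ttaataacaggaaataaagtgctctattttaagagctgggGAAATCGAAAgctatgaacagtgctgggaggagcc
Ifi205 (chr1:174031840-174031929, minus strand): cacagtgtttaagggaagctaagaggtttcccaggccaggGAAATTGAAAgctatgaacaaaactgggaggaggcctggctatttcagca

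Isg15 carries 3 overlapping matches, Oas1a and Oas1g carry 2 each, and the other genes shown carry 1. Oas1a and Oas1g are near copies that lie side by side, as are the Ifi200 genes on chromosome 1, so RSEM may have divided fragments between them and they are not independent examples.

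The OAS enzymes sense double-stranded RNA and activate RNase L. Oas2 stood at 4.29, 1.84 and 2.71 FPKM in cisplatin libraries 1, 2 and 3 and at 7.48, 6.42 and 6.00 in combination libraries 2, 3 and 4, a log2 fold change of 0.9955 ± 0.2874 (adjusted p = 0.657, limma). Oas1a stood at 7.65, 5.32 and 7.19 FPKM against 14.5, 11.6 and 9.17. In both genes every combination library was above every cisplatin library, with library 4 the lowest of the 3. Oas3 overlapped, because cisplatin library 1 at 3.96 FPKM was above combination library 4 at 3.71. Oasl1, Oasl2 and Oas1g did not overlap in FPKM. Of the 15 non-overlapping members 3 (Oas1g, Usp18 and Xaf1) did overlap in fragments scaled to depth alone, without regard to transcript length.

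Usp18, which removes ISG15 from proteins and damps interferon signalling, had 2.72, 2.38 and 4.02 FPKM with cisplatin and 10.6, 7.69 and 4.54 with the combination (log2 fold change 1.05 ± 0.31). Isg15 itself, a ubiquitin-like modifier, was at 6.85, 6.29 and 9.60 FPKM against 23.7, 14.4 and 9.04. Its libraries overlapped, with combination library 4 below cisplatin library 3. Slfn2, a schlafen gene needed for quiescence of T cells, was at 12.96, 16.1 and 10.4 FPKM against 19.0, 26.9 and 18.9 (log2 fold change 0.68 ± 0.19), and here library 3 was the highest.

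The Ifi200 genes encode interferon-inducible proteins of the AIM2-like receptor family that bind DNA or partner with such proteins. Ifi204 was at 25.03, 27.0 and 21.2 FPKM with cisplatin and at 51.0, 58.7 and 27.5 with the combination. Ifi211 was at 26.3, 25.5 and 24.8 FPKM against 49.3, 45.02 and 27.1. Combination libraries 2 and 3 held about the same raised level, while library 4 lay just above the cisplatin range. Ifi203 had the same order of groups with a smaller difference (log2 fold change 0.52), and Mndal a value of 0.25 with overlapping libraries.

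The remaining non-overlapping members were Dhx58, a regulator of RNA sensing, Trim30a, Xaf1, Ifi27 and Ifi27l2a. Several of the best known interferon targets did overlap: Ifit1 was at 2.23, 2.21 and 4.35 FPKM against 9.76, 5.13 and 2.57, and Ifit3 and Rsad2 showed the same pattern, with combination library 4 inside the cisplatin range. Mx1 and Mx2 were below 1 FPKM on average and were not tested. Epsti1, with -0.07, was the only tested member below 0.

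**Figure D2:**
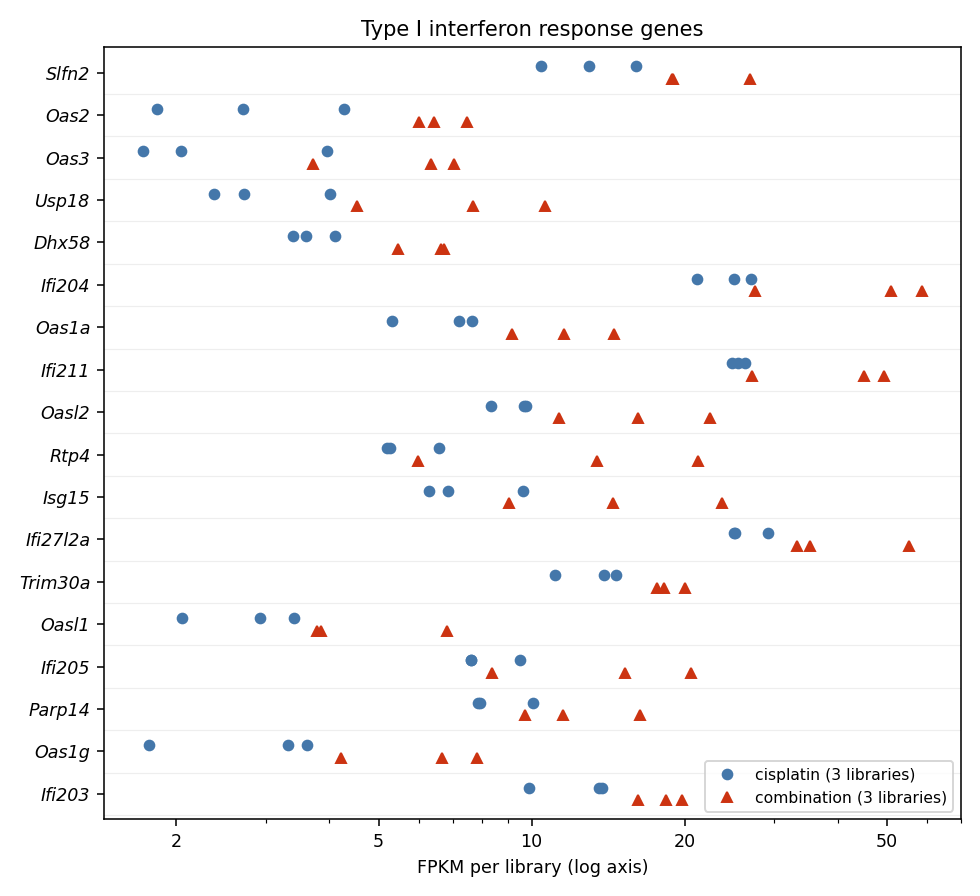
FPKM (log axis) of the 18 type I interferon response genes with an unadjusted p under 0.05, ordered by p, with circles for the 3 cisplatin libraries and triangles for the 3 combination libraries. For most genes 2 triangles lie clearly to the right of the circles and the third, usually combination library 4, lies near the cisplatin range.

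The mean log2(FPKM + 1) over the 35 genes was 3.13, 2.94 and 3.16 in cisplatin libraries 1, 2 and 3 and 3.93, 3.72 and 3.27 in combination libraries 2, 3 and 4. Without combination library 4 the count with an unadjusted p under 0.05 went from 18 to 27 of 35, and without combination library 2 it went to 9. The fat cell genes also differed between the groups, with the scores given above, and with their mean as a covariate the count was 3 of 35 and the median 0.29. That score lay higher in every combination library than in every cisplatin library, so the covariate can take up part of the group difference itself. The part of fat tissue in the interferon difference was not tested beyond that covariate. With brivanib and no cisplatin the same genes had a median of 0.40 against vehicle, and no member differed between the 2 brivanib effects at an adjusted p of 0.05. In bulk tumours a change in the number of cells of a type and a change in RNA per cell cannot be told apart.

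Upstream of these genes lies the sensing pathway. Its mRNAs for STING, TBK1 and IRF3 differed little, and those for cGAS and interferon beta were low. Cgas was at 0.127, 0.219 and 0.385 FPKM in the cisplatin libraries and 0.227, 0.172 and 0.521 in the combination libraries, too low to be tested, and the groups overlapped. Ifnb1, the gene of interferon beta, was listed at 0 FPKM in 5 of the 6 libraries and at 0.148 in combination library 4. Tmem173, which encodes STING, was at 22.1, 19.97 and 20.3 FPKM against 19.8, 23.7 and 23.1 (log2 fold change 0.09 ± 0.11), and Tbk1 (-0.11 ± 0.10) and Irf3 (0.06 ± 0.13) overlapped as well. The mRNA of these proteins gives no measure of their activation.

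The members of the pathway with higher levels were ones that interferon itself induces or that sense RNA. Of 18 tested members, 4 did not overlap with the combination on top, against 4.94% of all genes. Stat2, part of the factor that binds the response element, was at 5.59, 5.30 and 7.26 FPKM against 11.3, 8.99 and 8.88 (log2 fold change 0.61 ± 0.20, adjusted p = 0.682). Irf7, which amplifies interferon production, was at 5.42, 3.76 and 4.48 FPKM against 11.7, 7.05 and 5.61 (0.67 ± 0.26). Mavs, the adaptor of the RNA sensors, was at 24.1, 21.4 and 22.1 FPKM against 31.8, 27.0 and 25.5, and Ddx58, which encodes the RNA sensor RIG-I, at 10.9, 9.47 and 11.5 against 16.0, 13.4 and 12.3. With the fat cell score as a covariate no member of this list had an unadjusted p under 0.05 with a higher level.

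Genes induced mainly by interferon gamma did not share the pattern: 0 of 24 tested were non-overlapping in either direction, and their median was 0.14. Cxcl10 was at 5.56, 9.20 and 10.6 FPKM against 8.75, 9.77 and 6.42. Among 18 genes of MHC class I presentation, H2-T23, H2-T22 and H2-D1 did not overlap, with the combination on top, where 4.94% of all genes did the same. H2-T23, a non-classical molecule that presents leader peptides to NK receptors, was at 19.7, 19.2 and 25.1 FPKM against 30.4, 32.4 and 33.3 (log2 fold change 0.58 ± 0.20). The immunoproteasome gene Psmb8 had a value of -0.44 ± 0.20, and the list median was 0.08.

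**Figure D3:**
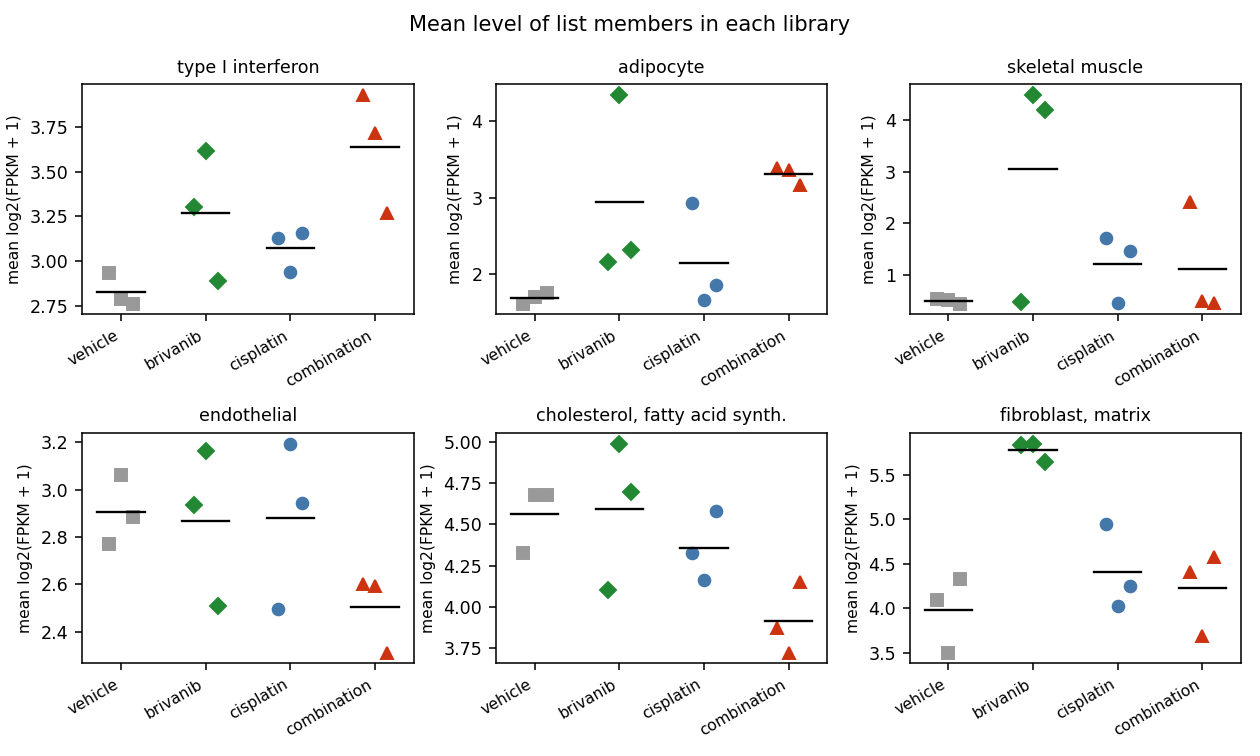
Mean log2(FPKM + 1) of the tested members of 6 gene lists in each of the 12 libraries, by group, with a line at the group mean. The 3 combination libraries are above the cisplatin libraries for the interferon and adipocyte lists, below the cisplatin libraries for cholesterol synthesis, and mixed with them for muscle and matrix genes.

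Endothelial genes had lower levels in the combination libraries. Of 19 tested, 18 had a fold change below 0 with a median of -0.33, and 5 did not overlap with the combination below (Ecscr, Tek, Tie1, Cdh5 and Eng), against 7.44% of all genes. Eng did overlap in fragments scaled to depth alone. Ecscr, an endothelial surface protein, was at 5.377, 5.401 and 5.403 FPKM with cisplatin and 3.53, 2.93 and 3.21 with the combination (log2 fold change -0.60 ± 0.12, adjusted p = 0.619). The cisplatin libraries agreed closely for this gene and the combination libraries lay well below them.

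Cdh5, the cadherin of endothelial junctions, was at 11.4, 21.8 and 16.1 FPKM against 9.37, 9.50 and 8.41 (-0.75 ± 0.25). Tie1 was at 3.81, 6.62 and 6.76 FPKM against 3.38, 2.74 and 2.29, and Tek, the receptor for angiopoietins, at 0.812, 1.51 and 1.45 against 0.667, 0.299 and 0.298. Cisplatin library 1 was the nearest to the combination range in each of them. The pan-endothelial gene Pecam1 overlapped for that reason, at 17.3, 30.8 and 26.2 FPKM against 18.8, 20.7 and 17.4, and so did Cldn5, Plvap and Erg. Ptprb, at 0.18, was the only tested member above 0.

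The score over the 19 genes was 2.50, 3.20 and 2.94 in cisplatin libraries 1, 2 and 3 and 2.60, 2.59 and 2.31 in combination libraries 2, 3 and 4, so the groups overlapped at library 1. Without cisplatin library 1 the median was -0.56 with 9 of 19 members at an unadjusted p under 0.05, and without cisplatin library 2 it was -0.16 with 3. Brivanib without cisplatin gave a median of 0.01 against vehicle.

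The receptors that brivanib targets were themselves little different in mRNA. Kdr, the main VEGF receptor, was at 2.75, 4.18 and 3.75 FPKM against 3.54, 3.22 and 1.99 (-0.23 ± 0.21), Flt1 had a value of 0.09 ± 0.25 and Fgfr1, at 113 to 175 FPKM, one of -0.07 ± 0.15. Flt4, Fgfr2, Fgfr3 and Fgfr4 were below the level tested. Nrp2, a VEGF co-receptor, overlapped in fragments scaled to depth alone but not in FPKM, at 53.8, 69.8 and 58.7 FPKM against 53.3, 38.2 and 52.0. Vegfa overlapped, with a log2 fold change of 0.29 ± 0.34.

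Among 17 genes of sprouting tip cells, Notch and apelin signalling, Lama4 and Nid2, which encode parts of the vessel basement membrane, lay lower without overlap, a count near the 7.44% of all genes. Nid2 was at 3.63, 7.86 and 3.61 FPKM against 2.72, 2.05 and 1.71 (-0.87 ± 0.34). Esm1, a tip cell gene that VEGF induces, overlapped at 3.25, 8.25 and 0.929 FPKM against 5.82, 7.30 and 2.99, as did Apln, Dll4 and Angpt2. Genes of hypoxia and glycolysis had a median of 0.13, with 24 of 30 above 0 and 0 non-overlapping.

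The second group with lower levels was cholesterol and fatty acid synthesis. These genes share control by SREBP factors, which are released when sterols are scarce. Of 22 tested, 21 had a fold change below 0 with a median of -0.40, and 9 did not overlap with the combination below, among them Insig1, Sqle, Cyp51, Hmgcs1, Elovl6, Fdps, Mvk and Acly. The share for all genes was 7.44%. Mvk did overlap in fragments scaled to depth alone.

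Insig1, the sterol sensor that holds SREBP back and is itself a target of it, was at 36.0, 31.2 and 40.2 FPKM with cisplatin and 21.7, 20.4 and 28.02 with the combination (log2 fold change -0.60 ± 0.19, adjusted p = 0.657). Sqle, which makes squalene epoxide, was at 19.3, 18.7 and 28.9 FPKM against 12.8, 11.9 and 16.1 (-0.66 ± 0.22). Cisplatin library 3 was the highest and combination library 3 the lowest for both genes.

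Hmgcs1, which makes the precursor of mevalonate, was at 32.6, 24.9 and 46.3 FPKM against 19.6, 21.8 and 24.6 (-0.59 ± 0.27). Its promoter window was the only one of 18 windows from 14 tested members (5.56%) with the sterol regulatory element core TCACNCCAC, searched on both strands, which 408 of 32851 windows hold (1.24%). The stretch is shown with the match in capitals, since Hmgcs1 was among the members whose libraries did not overlap.
Hmgcs1 (chr13:119690174-119690262, plus strand): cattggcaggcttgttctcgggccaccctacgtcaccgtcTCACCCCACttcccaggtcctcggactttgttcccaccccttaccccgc

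The group was not uniform. Idi1 (-0.81 ± 0.38) and the regulator Srebf2 (-0.56 ± 0.22) had large differences but overlapped, and Fasn, Fdft1 and Scd1 lay near 0. Brivanib without cisplatin gave this list a median of 0.02 against vehicle. With the fat cell score as a covariate the median was -0.69, and 14 of 22 members rather than 6 had an unadjusted p under 0.05. The count was 2 without cisplatin library 3 or combination library 3, 3 without combination library 2 and 10 without cisplatin library 2.

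**Figure D4:**
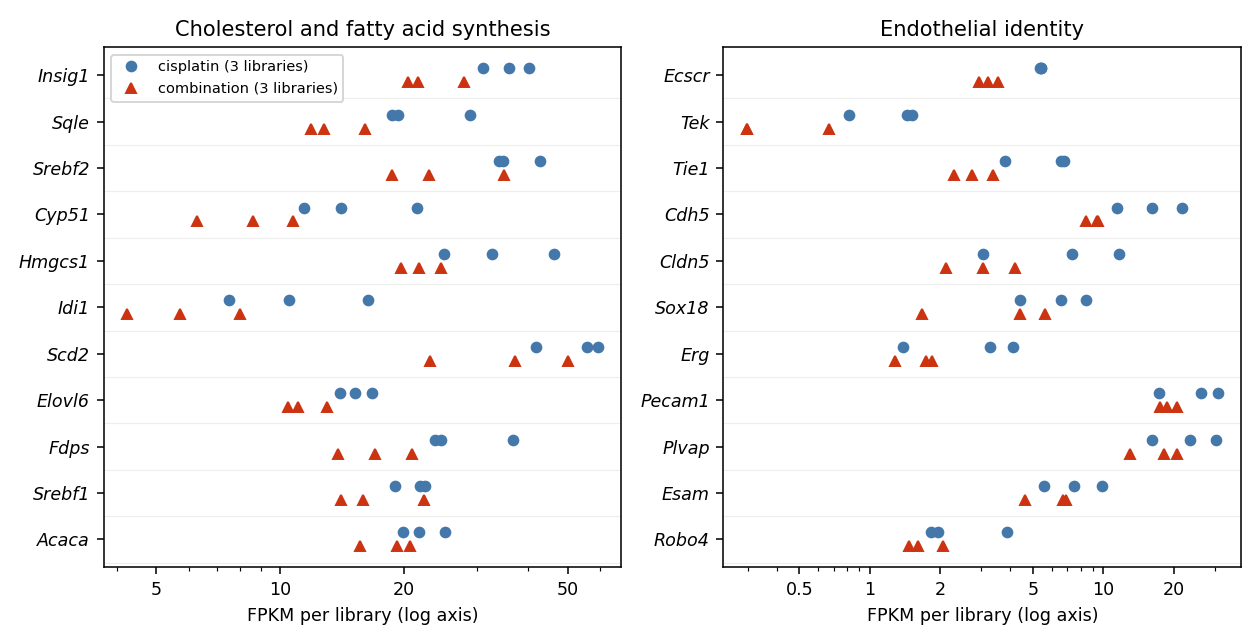
FPKM (log axis) of the 11 genes with the smallest p, among those reported, from the cholesterol and fatty acid synthesis list (left) and from the endothelial list (right), with circles for cisplatin and triangles for combination libraries. The triangles lie to the left of the circles, fully separate for Insig1, Sqle, Cyp51, Hmgcs1, Elovl6 and Fdps and for Ecscr, Tek, Tie1 and Cdh5.

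Genes for burning fatty acids were split. Of 21 tested, 7 did not overlap with the combination on top, among them Fabp4, Cpt1a, Slc25a20, Etfdh, Acadl and Acsl4, against 4.94% of all genes. Acsl3 lay lower without overlap, and the list median was 0.09. Cpt1a, which commits fatty acids to entry into mitochondria, was at 54.6, 35.1 and 36.4 FPKM with cisplatin and 62.7, 97.8 and 68.0 with the combination (log2 fold change 0.84 ± 0.22). Slc25a20, the carrier for the next step, was at 15.3, 14.6 and 13.95 FPKM against 21.7, 27.0 and 16.7 (0.52 ± 0.15). Combination library 3 was the highest for both genes. The enzymes of the later steps, such as Hadha, Hadhb and Acadm, overlapped.

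Fabp4, a fatty acid carrier of fat cells, macrophages and capillaries, stood at 21.3, 4.72 and 4.93 FPKM against 55.4, 273 and 37.6 (3.21 ± 0.79). Fat cell genes as a whole were higher: all 13 tested were above 0 with a median of 1.04, and 6 did not overlap (Fabp4, Retn, Cidec, Car3, Pparg and Pck1), against 4.94% of all genes. Adipoq, the defining hormone of fat cells, was at 3.11, 0 and 0 FPKM in cisplatin libraries 1, 2 and 3 and 4.08, 1.58 and 2.62 in the combination libraries, whereas Cidea was listed at 0 in all 6. With the fat cell and muscle scores as covariates no fatty acid oxidation gene had an unadjusted p under 0.05 with a higher level. Fabp4 and Acsl1 are themselves part of the fat cell score. That score also separates the groups in full, so this fit leaves less of their difference to test. Whether fat tissue accounts for the rest of these values was not tested.

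Outside the lists, Hoxc6 had the smallest p of genes with higher levels. This homeobox gene of axial patterning (chr15:102998257-103011881, plus strand, GRCm38) was at 9.57, 10.99 and 8.72 FPKM with cisplatin and 19.7, 22.9 and 14.3 with the combination, a log2 fold change of 0.87 ± 0.16 (adjusted p = 0.588, limma). The next were Ccdc77 (0.62), Nbdy (0.46), whose product takes part in mRNA decapping, Apobec1 (0.69), a cytidine deaminase that edits RNA, Rexo4 (0.45), the small heat shock gene Cryab (1.21) and Nfya (0.56), a subunit of the factor that binds CCAAT boxes. Ccdc77 was at 7.04, 6.89 and 6.67 FPKM against 11.3, 11.8 and 10.3, with little spread inside either group. Chil3, a chitinase-like protein of alternatively activated macrophages and neutrophils, was at 3.28, 6.10 and 5.74 FPKM against 12.3, 52.2 and 13.8, with combination library 3 far above the others.

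Mest (chr6:30723547-30748465, plus strand), an imprinted gene expressed in growing mesenchyme, had the smallest p of all genes in the comparison. It was at 4.26, 8.18 and 7.01 FPKM with cisplatin and 1.26, 0.577 and 1.61 with the combination (log2 fold change -1.79 ± 0.31, adjusted p = 0.588, limma). Prnd, which encodes the prion-like protein doppel found in vessels, was at 2.74, 6.87 and 2.29 FPKM against 0, 0 and 0.172 (-2.12 ± 0.41). Both were present in every cisplatin library and at low levels or listed at 0 in the combination libraries.

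H1f0, the linker histone of resting cells, was at 230 to 324 FPKM with cisplatin and 146 to 200 with the combination (-0.77 ± 0.16). Gstz1, of tyrosine breakdown, was at 19.9, 19.4 and 18.1 FPKM against 10.7, 11.6 and 11.5 (-0.72 ± 0.12). The other genes with the smallest p and lower levels were Arhgef28 (-0.47), Zfp180 (-1.11), Cpq (-0.76), H2-Ke6 (-0.49) and Matr3 (-0.72). Matr3 did not overlap in FPKM but did in fragments scaled to depth alone, and how fragments were divided among its isoforms was not tested. The 10 genes named in each direction were those with the smallest p among non-overlapping genes, provisional gene models left out, so their separation is a description.

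Genes that handle cisplatin or its damage were mostly alike. Lrrc8d, whose product is part of an anion channel through which platinum drugs enter cells, stood apart at 20.2, 23.4 and 12.3 FPKM with cisplatin against 7.56, 6.07 and 7.63 with the combination (log2 fold change -1.24 ± 0.33, adjusted p = 0.657). Lrrc8b also did not overlap (-0.17 ± 0.12). The other 13 tested genes of uptake and efflux overlapped, while 7.44% of all genes lay lower without overlap. Of 35 genes for repair of platinum cross-links 5 did not overlap, 3 higher and 2 lower, a share near the 12.4% of all genes. Xpa, which verifies damage in nucleotide excision repair, was at 13.3, 12.4 and 14.96 FPKM against 9.40, 10.5 and 8.73 (-0.46 ± 0.13), while Fancd2 and Slx4 both had a value of 0.23.

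Among 24 p53 targets only Bax, a promoter of apoptosis, did not overlap, at 61.9, 65.5 and 64.5 FPKM against 50.6, 48.4 and 57.7 (-0.29 ± 0.10). That share is no higher than the 7.44% of all genes that lay lower without overlap, and the list median was 0.12. Gsr, which regenerates glutathione, was at 62.7, 68.0 and 67.1 FPKM against 57.0, 53.1 and 52.9 (-0.27 ± 0.08). Genes of mitosis had a median of 0.04 and those of DNA replication of -0.03, with 3 of 31 members higher and 3 lower without overlap, near the 4.94% and 7.44% of all genes. Nuclear genes of the respiratory chain were below 0 for 28 of 30 with a median of -0.11, and 3 lay lower without overlap, a share near the 7.44% of all genes.

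Immune cell markers differed by type. Macrophage genes had a median of 0.01 over 22 tested, T cell genes of -0.13 over 10 and cytotoxic and NK cell genes of 0.01 over 20. Neutrophil genes had a median of 0.53 with 9 of 12 above 0, and that median was -0.11 without combination library 3. Mast cell genes had a median of -0.27 with 0 of 6 above 0, and none of the 6 lay apart without overlap. The granzyme and perforin genes overlapped in full: Gzmb was at 57.8, 113 and 78.4 FPKM against 87.7, 83.8 and 98.8. Cd8a reached 1.08 FPKM in cisplatin library 1 and no more than 0.213 in the combination libraries, and it and Ifng were below the level tested. Klrc1, an inhibitory NK receptor, was lower without overlap (2.86, 2.90 and 3.13 FPKM against 0.751, 2.19 and 1.71), as was Nkg7, a granule protein (7.75, 9.69 and 10.7 against 6.34, 4.64 and 6.83). They were the only 2 of the 20 cytotoxic and NK cell genes without overlap, a share near the 7.44% of all genes. Of the 20, 11 had a fold change above 0 and 9 below.

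Ccl5, a chemokine that attracts T and NK cells, was at 9.33, 10.9 and 6.24 FPKM with cisplatin and 28.1, 14.8 and 11.2 with the combination (log2 fold change 0.88 ± 0.31). It was the only 1 of 23 tested chemokines without overlap, a share near the 4.94% of all genes with the combination on top. Of 16 tested checkpoint genes 2 lay higher and 1 lower without overlap, where 4.94% and 7.44% of all genes did so. The median of that list was 0.09, with 9 above 0 and 7 below. The checkpoint receptor Havcr2 was at 14.8, 13.5 and 14.1 FPKM against 20.9, 36.6 and 19.0 (0.75 ± 0.28). Pdcd1, which encodes PD-1, was at 0.629, 0.777 and 0.404 FPKM against 1.33, 0.879 and 2.39, and Cd274, which encodes its ligand PD-L1, overlapped (0.40 ± 0.26). The mean log2(FPKM + 1) of 12 tested neutrophil genes was highest in combination library 3 (3.43) and next in cisplatin library 2 (2.89). Mmp8 reached 15.8 FPKM in combination library 3 against 1.67 and 2.06 in the other combination libraries. Of the same list, Il1b, Cxcl2, Hdc and Mmp9 were instead highest in cisplatin library 2. Hbb-bs, an adult globin, was at 32.9, 6.46 and 0 FPKM with cisplatin and listed at 0 in all 3 combination libraries, as was Hbb-bt. Globin RNA was not absent there, since Hba-a1 overlapped at 25.5, 5.75 and 4.20 FPKM against 3.965, 13.7 and 4.32.

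Serpina3n, an acute phase protease inhibitor, was at 9.52, 0.706 and 0.991 FPKM with cisplatin and 18.5, 11.2 and 12.3 with the combination (log2 fold change 2.15 ± 0.56). Without cisplatin library 1 its fold change was 2.99 with an adjusted p of 0.0256 (limma), while with all 6 libraries the adjusted p was 0.657. Hp, Lcn2 and Cfd also had an unadjusted p under 0.05 with higher levels, but in each of them cisplatin library 1 lay above the lowest combination library. The acute phase and complement list had a mean log2(FPKM + 1) of 4.09 in cisplatin library 1, within the combination range of 3.37 to 4.17, and of 2.72 and 2.46 in cisplatin libraries 2 and 3.

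Brivanib given without cisplatin changed many genes: 243 rose (1.71% of those tested) and 15 fell (0.105%) against vehicle at an adjusted p of 0.05. Together these 258 were 116 to 159 without vehicle library 2, 3 or 5 or without brivanib library 5. The 243 that rose had a median log2 fold change of 1.60 against vehicle. They were picked by that comparison, so this median is raised by the choice. When brivanib came on top of cisplatin their median was 0.03, with 130 above 0 and 113 below. Among them 10 lay above and 11 below the cisplatin libraries without overlap, where 4.94% and 7.44% of all genes did so. Of the 243, 36 averaged under 1 FPKM in each of the other 3 groups and passed the level filter only through the brivanib libraries, so on log2(FPKM + 1) they had little room to differ in the cisplatin groups. The other 207 had medians of 1.48 against vehicle and 0.06 with cisplatin present, with 118 above 0 and 89 below. Only 5 had a value of at least 1 with cisplatin present. The difference between the 2 brivanib effects passed the adjusted threshold for 20 genes (0.14% of those tested), and in each the effect was smaller with cisplatin. The count ran from 1 without vehicle library 3 to 27 without combination library 4, and was 7 without vehicle library 2, 8 without brivanib library 5 and 12 or 13 without cisplatin library 1, brivanib library 2 or combination library 3. All 20 are among the 243, so their direction with brivanib alone is part of how they came to pass. Of the 20, 9 averaged under 1 FPKM in each group other than brivanib. At a mean of at least 5 FPKM the difference passed for 2 genes.

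Of these 20 genes 3 (Col14a1, Pi16 and Fbln1) are on the list of fibroblast and matrix genes, and all 3 are among those under 1 FPKM outside the brivanib group. Col14a1, a collagen of tendon and skin fibroblasts, was at 1.69, 0.458 and 0.381 FPKM with cisplatin and 0.832, 0.128 and 0.673 with the combination, a log2 fold change of -0.22 ± 0.29, against 2.92 ± 0.29 for brivanib alone. Tnc, the matrix protein tenascin C, which all groups express, was at 18.5, 7.37 and 9.98 FPKM against 7.21, 1.15 and 4.63, with values of -1.39 ± 0.52 with cisplatin present and 3.12 ± 0.52 without it. Tnc, Antxr1, Gas1 and Srsf1, 4 of the 20, lay below the cisplatin libraries without overlap, where 7.44% of all genes did so. The 20 were picked by a difference that contains combination minus cisplatin, so low values there are in part fixed by the choice. Col1a1 was at 75.6, 18.1 and 15.7 FPKM against 50.8, 8.94 and 49.1, so cisplatin library 1 was above all combination libraries.

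Over the 32 fibroblast and matrix genes the median was -0.13 with cisplatin present and 1.77 without it. Lum, Fn1 and Col6a3 lay below the cisplatin libraries without overlap, a share near the 7.44% of all genes, with Lum at 149, 154 and 173 FPKM against 99.7, 63.7 and 126. The list median was 0.03 without cisplatin library 1 and 0.0047 without combination library 3, so its sign rests on those libraries. The muscle markers of the brivanib group stood at 0.461, 4.49 and 4.20 in libraries 2, 3 and 5 against at most 2.42 in the combination group, and their part in the difference of the effects was not tested.

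**Figure D5:**
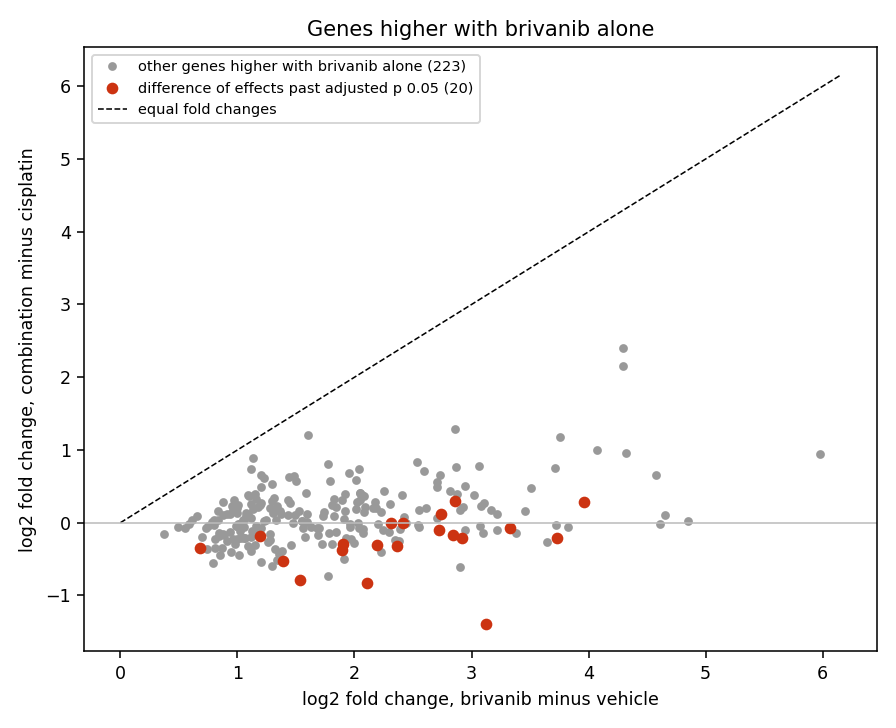
Each point is 1 of the 243 genes that rose with brivanib against vehicle, with its log2 fold change there on the x axis and its log2 fold change when brivanib was added to cisplatin on the y axis, both on log2(FPKM + 1). Red points mark the 20 genes whose effects differed at an adjusted p of 0.05, and the points lie along 0 on the y axis (median 0.03), below the dashed line of equal fold changes. The genes were picked by their value on the x axis, so their place below that line is in part fixed by the choice.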

How the data were processed

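The authors deposited FPKM per transcript, which the labels' design text says came from Bowtie2 alignment to mm10 and RSEM on BGISEQ-500 reads. The submitters' processing notes give Bowtie2 2.2.5 and RSEM 1.2.12, also name HISAT and Bowtie, and list mm9. Transcript values were summed per gene. For 1 per-sample column there was no matching label and it was not used; 3 broken lines were dropped. Groups were compared with limma 3.58.1 (R 4.3.3) on log2(FPKM + 1), with a mean per group over 12 libraries (8 residual degrees of freedom), a variance trend, two-sided tests and Benjamini-Hochberg adjustment over 14246 genes with a mean FPKM of at least 1. Non-overlap means that all 3 libraries of a group lie beyond all 3 of the other. Fragments recovered from FPKM times length were whole within 0.01 for 100% of values up to 100. The members, 49 gene lists and the naming rule (10 smallest p in each direction among non-overlapping genes, provisional models left out, up to 4 members a list by size of the statistic, and a fixed panel) were chosen with earlier results of these data known, and other genes were named after their values were seen. Lists were described by counts and medians. Procedures were tested on simulated data. Positions and promoter sequences are from GRCm38 annotation and RefSeq. FPKM does not correct for tissue makeup, and isoforms and near-identical copies can split fragments. Some genes of the lists enter the counts and medians and are not reported here by name.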

Additional observations from a re-analysis of the deposited data

Results flagged for a closer look

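For 20 genes the effect of brivanib with cisplatin differed from its effect without cisplatin at an adjusted p of 0.05 (limma, the contrast of the 2 contrasts). All 20 differences are negative, that is, smaller with cisplatin. On the log2(FPKM + 1) scale they were -4.51 for Tnc, -3.93 for Rcn3, -3.67 for Cd209f, -3.40 for Pi16 and -3.13 for Col14a1. For Fbln1 the difference was -3.00, for 8030451A03Rik -2.94, for Fndc1 -2.82, for Pdpn -2.69 and for Clec3b -2.61. Lbp had -2.56, Srpx2 -2.50, Cd209g -2.42, Ptgfrn -2.32 and Antxr1 -2.31. Maged2 had -2.27, Adam12 -2.20, Gas1 -1.92, P4ha3 -1.38 and Srsf1 -1.03. 8030451A03Rik lies within the span of Tnc on the opposite strand, and no strand setting is given in the sources used here, so their reads cannot be told apart. Brivanib library 5, with the FPKM total of 921510.4, enters these differences and not the comparison of combination with cisplatin; without it 8 genes passed. Of the 20 genes, 9 averaged under 1 FPKM in each group other than brivanib and passed the level filter only through it.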

How the results depend on the processing

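Genes called for combination against cisplatin were 0 with all libraries. They were 3 with no filter on low values, and 0 to 2 when a library was left out (without replicate settings): Mgst1 and Serpina3n without cisplatin replicate 1, H2-Q1 without cisplatin replicate 3, and Tmed2 and Gm49450 without combination replicate 3. For brivanib against vehicle the count of 258 went to 69 at a mean FPKM of at least 5, to 165 with equal totals and to 116 to 282 without each library. For the difference of the effects the count of 20 went to 0 with pseudocount 0.1, to 2 at a mean FPKM of at least 5, to 45 with equal totals and to 1 to 27 without each library. Lone libraries left out leave groups of 2, which borrow the spread of the others. With the replicate block the counts were 0, 194 and 1. Numbers 2 and 3, which both groups share, gave correlations of 0.10 and -0.01 between same-numbered deviations. These 2 values show no sign of pairing by number but are too few to settle it. The cause of the moves in the counts was not tested. All 20 genes with the smallest p kept the sign of their fold change in every alternative that tested them, as did 174 of 207 named genes (162 genes were tested in 27 alternatives and 45, Prnd among them, in 26). The interferon, endothelial and cholesterol medians kept theirs, within 0.29 to 0.77, -0.56 to -0.16 and -0.69 to -0.29. The fatty acid oxidation median went from 0.09 to -0.06 with both tissue scores as covariates. The adipocyte median went from 1.04 to -0.14 there, which is fixed by construction, since the fat cell score is the mean of the same 13 genes. The counts of list members without a library or with a covariate were added after seeing the data. Equal totals lower brivanib library 5 and move the median of all genes in brivanib against vehicle to -0.34. Depth limits genes with few fragments, such as Cgas and Ifnb1.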
